A study of Oedaleus asiaticus with 9 samples.

Results

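The deposited miRNA table of the band-winged grasshopper Oedaleus asiaticus lists 365 entries, and the 73 described here are those that the authors predicted from the reads and gave a running number in place of a family name. They were chosen as all 74 entries of the class that the table keeps for predictions, without m0007-5p, whose sequence lies within the known entry miR-750-x. Each identifier is printed without the prefix that repeats this class in the table, so m0001-5p stands for the full identifier shown in the plots. The other 291 entries carry a known family name and serve as the comparison set. Small RNA was sequenced from females of 3 stages, namely 3rd instar nymphs, 5th instar nymphs and adults, all aged 3 days within their stage, with 3 libraries per stage. All animals were fed normally and given no other treatment, and no label names a body part. Since the labels do not say that libraries of a stage stem from different animals, p-values cover the spread between libraries alone, which may be technical.

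A miRNA is a short RNA that Dicer cuts from the stem of a hairpin and that Argonaute carries to messenger RNAs, where its seed, bases 2 to 8, pairs with the target. The suffix 5p or 3p names the hairpin arm that a sequence comes from. Insect miRNAs often begin with U, written T in the table. A predicted miRNA rests on reads and a hairpin prediction without a match to a catalogued family. In grasshoppers, which reach adulthood through nymphal moults without a pupa, known miRNAs act in moulting and egg development, whereas no function is annotated for the predicted entries here, and none is assigned.

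The sequences below are those on which the levels turn, with the seed in capitals and 5′ to 3′. They are the 10 predicted entries with the highest mean CPM, the count scaled to the same total in every library, over the 9 libraries, in that order.
m0001-5p: gATGTCGAtgggggccgt
m0005-5p: gAGGTGTAgcataagtggga
m0002-3p: aTGAGCAAtgttattcaaatgg
m0004-3p: cGGCCTATcgatccttttgg
m0006-5p: aGGACGCGtgcgagcagcaggt
m0011-5p: cGTGATTGaatctgagcgattcct
m0003-5p: gGCGGATGtagccaagtgga
m0014-5p: cTAGATATagccgcttgtagagggc
m0008-3p: tTTGTTCGctcggctcgagccg
m0009-5p: aACCACGCtctgctacca
None of these 10 shares its seed with another predicted entry, and 1 of them, m0008-3p, begins with T.

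The predicted entries had a median length of 22 nt, against 21 nt in known entries. Lengths of 21 to 23 nt were held by 36 predicted entries (49.3%) and by 140 known entries (48.1%). The sets differed at the ends of the range: 18 or 19 nt was the length of 13 predicted entries (17.8%) and of 108 known entries (37.1%), and 24 or 25 nt that of 13 predicted (17.8%) and 29 known entries (9.97%). At 20 nt stood 11 predicted entries (15.1%) and 14 known entries (4.81%). These shares are descriptions, since entries are not replicates. Entries with the same sequence were counted separately: 70 sequences were distinct in the predicted and 280 in the known set. All predicted entries that share a sequence are 23 nt long.

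**Figure D1:**
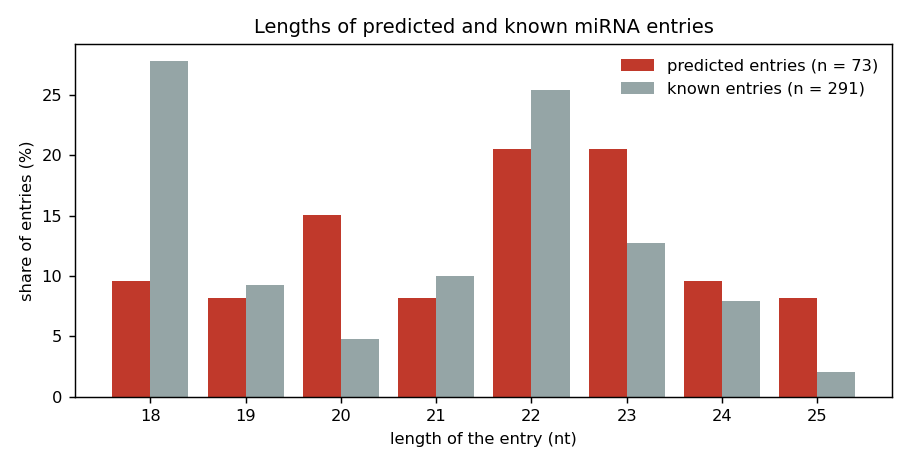
Share of entries (%) at each length from 18 to 25 nt, for the 73 predicted entries (red) and the 291 known entries (grey). The predicted entries have peaks at 22 and 23 nt with 15 entries each, and the tallest known bar is at 18 nt with 27.8%. The predicted bar at 23 nt includes entries that share a sequence.

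The first base of the predicted entries was spread almost evenly over the 4 bases. T opened 20 of them (27.4%), A 18, C 18 and G 17 (23.3%). Among known entries T opened 134 (46.0%) and G 24 (8.25%). The median GC content was 50.0% in predicted and 47.6% in known entries. The predicted range ran to 95.5% in m0068-3p (gGGGTCGGcgcgcggcgcgggc), chosen after its values were seen. The names put 41 entries on the 5p and 32 on the 3p arm, and no running number occurs with both arms, so no pair of arms could be compared.

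Of the 73 entries, 70 sequences were distinct. Entries m0029-5p, m0030-5p and m0031-5p bear the same 23 nt (aGGCTGGAaccaaggatctggca) and the same count in every library, 0 to 16. Entries m0024-5p and m0025-5p also share 23 nt (tGCAGGCGactcgtaactccgca), but their counts differ in 5th instar library 3 (8 and 10) and adult library 3 (16 and 25). These names therefore do not stand for 5 separate sequences.

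Few predicted entries resembled a known one. An ungapped match over at least 16 bases with at most 2 mismatches linked 3 of the 73 to a known entry, and 2 more shared a seed alone. The known partners, shown for comparison with the sequences above, and the remaining predicted entries of these pairs were as follows.
miR-313-x: gCTGTCGAtgggggcagt
miR-375-y: tTTGTTCGctcggctcgag
m0033-5p: gATAGCTCagttggtagagc
miR-1692-z: aTAGCTCAgttggtagag
m0013-3p: cCGTACTTgtctgctgct
miR-1-x: cCGTACTTccttacttctcata
m0057-5p: aATACCTTtgattgcaga
iab-4-y: tATACCTTcagtatacgtaact
The most abundant entry, m0001-5p, and miR-313-x are both 18 nt long and identical at 16 positions. The differences are A2C and C16A, with positions counted from 1 at the 5′ end and the base of m0001-5p first, so the seeds differ. Entry m0008-3p is miR-375-y with 3 further bases at its 3′ end and has the same seed. In vertebrates miR-375 is known as a miRNA of pancreatic islets. Entry m0033-5p contains miR-1692-z with 1 further base at each end, which shifts the seed. Seeds alone were shared by m0013-3p with miR-1-x, from the hairpin of the muscle miRNA miR-1, and by m0057-5p with iab-4-y, from the Hox cluster. The 3 other known names that share the seed of m0057-5p, miR-iab-4-1-y, miR-iab-4-2-y and miR-iab-4-y, have the same counts as iab-4-y. Among the predicted entries themselves, m0017-5p and m0067-3p shared a seed, and m0006-5p and m0055-5p (cGGCCACCtgctgctcgca) were reverse complements over 14 bases. That pair carries different running numbers, and both are named 5p. These last 4 entries and the copies above were picked for their sequences, after their values were seen.

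Total counts over the listed entries were 1462586 to 5309504 per library. A count of 0 allows 0.565 CPM in the deepest and 2.05 CPM in the shallowest library (3 counts, counting error only, as the protocol names no molecular identifiers). Between 56 and 67 of the 73 predicted entries had a count in a library, which is 76.7% to 91.8%, and between 72.9% and 88.7% of known entries did. In all 9 libraries a count was found for 29 predicted (39.7%) and 162 known entries (55.7%). Requiring 10 counts in every library left 11 predicted and 111 known entries. None of the 73 was found in fewer than 3 libraries, and 14 were found in 5 or fewer. For 35 (47.9%) no library reached 10 counts, as for 36.8% of known entries.

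A single entry held nearly all counts of the predicted set. Entry m0001-5p had the highest count of any entry in all 9 libraries and took 99.8% of the predicted counts, 18313505 over the 9 libraries against 30454 for the other 72 entries together. Its share of all listed counts was 66.3%, 74.0% and 71.5% in libraries of the 3rd instar, 65.5%, 67.2% and 61.2% in those of the 5th instar and 59.1%, 73.1% and 66.8% in those of adults. The adult libraries spanned almost the whole range of the 9, and all 3 stages overlapped. Stage means were 70.6% ± 3.91, 64.6% ± 3.09 and 66.3% ± 6.98 (SD, n = 3 each). An exact permutation test over the 3 stages gave p = 0.379 (two-sided, 1680 assignments, smallest possible p = 0.00357). The widest 95% Wilson interval of these shares spanned 0.159 percentage points, far less than the gaps between libraries of one stage. Against the sum of the known entries, m0001-5p was 1.45- to 2.86-fold as abundant.

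**Figure D2:**
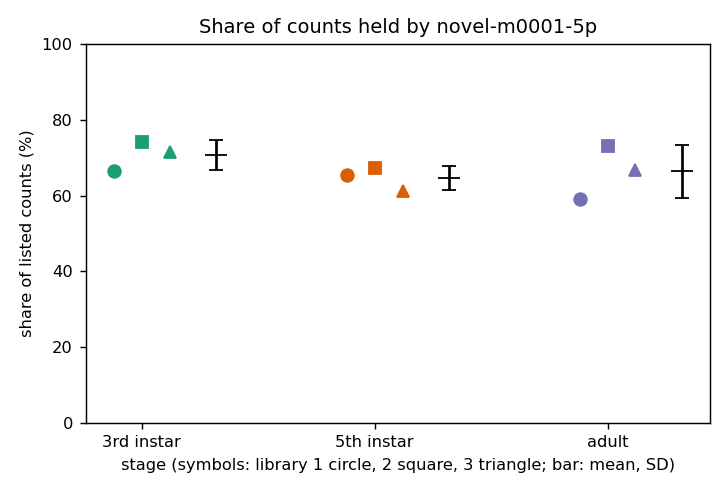
Share of listed counts (%) held by m0001-5p in each library by stage, with the mean and SD (n = 3) beside the points. All 9 libraries lie between 59.1% and 74.0%, and adult libraries 1 and 2 lie near the ends of that range.

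The near-identical miR-313-x had 13, 7 and 37 counts in libraries of the 3rd instar, 4, 5 and 17 in those of the 5th instar and 2, 16 and 30 in those of adults. It had at least 1 count in every library. Whether some reads of one entry were counted in the other was not tested.

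The other 72 predicted entries were rare. Together they held 0.0693% to 0.338% of the counts of a library, at a median of 0.105%. The 4 with the highest totals held 71.4% and the top 9 held 87.7% of these counts. Only 3 of the 72 averaged 100 CPM or more, 8 averaged 10 to 100 CPM, 32 averaged 1 to 10 CPM and 29 less than 1 CPM. Among known entries 27 averaged 1000 CPM or more, a level that 1 predicted entry, m0001-5p, reached. The median entry averaged 1.26 CPM in the predicted and 3.37 CPM in the known set.

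**Figure D3:**
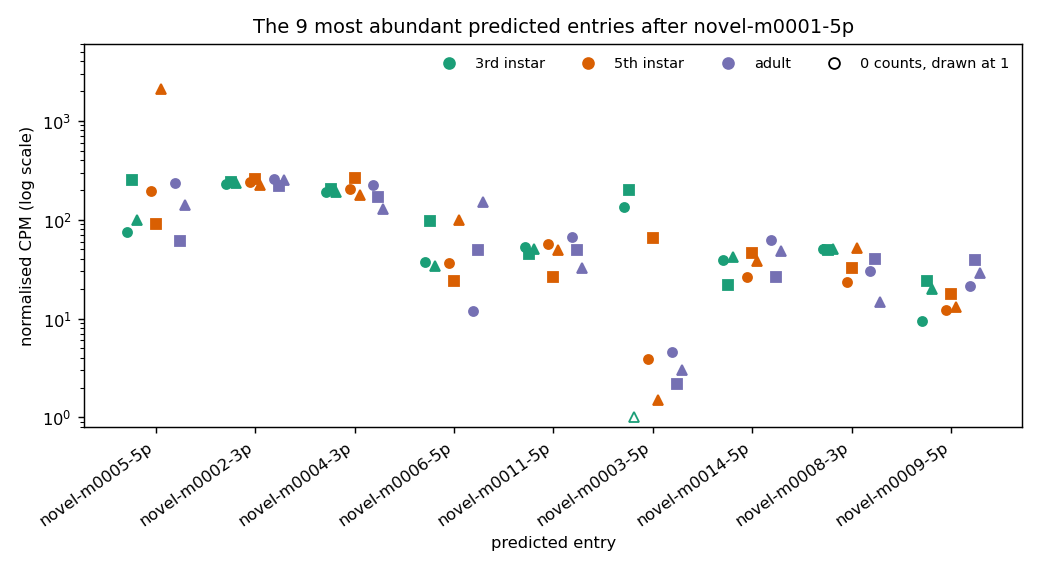
Normalised CPM (log axis) of the 9 most abundant predicted entries after m0001-5p, ordered by their mean over the 9 libraries, by stage (colour) and library (circle, square and triangle for libraries 1, 2 and 3). Entry m0005-5p has 1 point at 2109 CPM in the 5th instar, and m0003-5p ranges from 0 to 199 CPM within the 3rd instar.

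Levels from here on are normalised CPM, counts relative to the library total after scaling by TMM factors, which set libraries to a common scale over most entries. Entry m0002-3p varied least of the 27 predicted entries that could be tested. It had 227, 239.8 and 233 CPM in the 3rd instar libraries, 242, 261 and 224 in those of the 5th instar and 260.0, 218 and 249.6 in those of adults. Its highest library exceeded its lowest 1.20-fold, and its coefficient of variation over the 9 libraries, 6.46%, was the lowest of the 55 tested entries that averaged at least 100 CPM. Entry m0004-3p had 189, 206 and 192 CPM in the 3rd instar, 205, 265 and 179 in the 5th instar and 223, 169 and 129 in adults, a coefficient of variation of 19.2%, near the 19.1% of m0001-5p. Both entries overlapped between all stages.

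Entry m0005-5p was high in 1 library. It had 74.5, 255 and 100.3 CPM in the 3rd instar libraries, 193, 89.8 and 2109 in those of the 5th instar and 234, 61.2 and 142 in those of adults. In 5th instar library 3 it supplied 72.7% of the counts of the 72 rarer predicted entries, against 7.73% to 21.6% in the other 8 libraries. That library is also the one in which the summed share of these entries reached 0.338%.

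Entry m0003-5p was high in 3 libraries of 2 stages and low or at 0 in the rest. It had 135, 199 and 0 CPM in the 3rd instar, 3.88, 65.5 and 1.503 in the 5th instar and 4.63, 2.18 and 3.04 in adults. The library at 0, 3rd instar 3, is the deepest of the 9 and could hold up to 0.661 normalised CPM (3 counts). Entry m0006-5p had 37.1, 98.1 and 34.2 CPM in the 3rd instar, 36.3, 24.2 and 100.3 in the 5th instar and 11.9, 49.1 and 152 in adults, a 12.8-fold range within the adult stage.

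These 3 entries had the largest spread within stages of the predicted set. The SD within stages, pooled over the 3 stages on the scale of log2(CPM + 1), was 2.86 for m0003-5p, 1.57 for m0005-5p and 1.28 for m0006-5p. They were the only ones of 27 tested predicted entries above 1, and 11 of 151 tested known entries were above 1 too. At an average of 100 to 1000 CPM, where m0005-5p lies, the SD of the 24 known entries was at most 0.593. At 10 to 100 CPM, where m0003-5p and m0006-5p lie, 7 of 63 known entries were above 1, the highest at 2.90. The median SD was 0.602 for predicted and 0.324 for known entries. Within ranges of level the gap was smaller. At 1 to 10 CPM the medians were 0.715 (15 predicted) and 0.524 (37 known), at 10 to 100 CPM they were 0.520 (8 predicted) and 0.341 (63 known), and at 100 to 1000 CPM they were 0.283 (3 predicted) and 0.224 (24 known). Entry m0001-5p, at 0.227, lay among known entries of 1000 CPM or more, whose SDs were 0.0863 to 0.433.

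**Figure D4:**
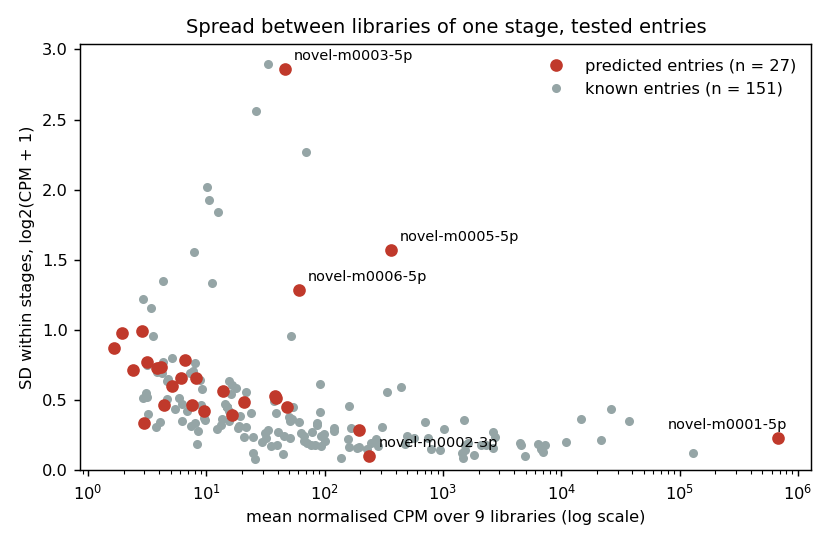
SD within stages of log2(CPM + 1) against mean normalised CPM over 9 libraries (log axis), for the 27 predicted (red) and 151 known (grey) tested entries. Entries m0003-5p, m0005-5p and m0006-5p lie above an SD of 1, and m0002-3p lies at 0.103.

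Across the 26 tested predicted entries other than m0001-5p, Pearson's r of log2(CPM + 1) was 0.736 to 0.942 between libraries of a stage (9 pairs, median 0.846). Between libraries of different stages it was 0.692 to 0.932 (27 pairs, median 0.858). Libraries of one stage were thus not more alike in these entries than libraries of different stages at the median. Across the 151 tested known entries the medians were 0.973 within and 0.960 between stages. These coefficients describe entries of shared libraries and depend on how widely the levels in each set range.

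The other entries among the 10 most abundant varied less. Entry m0011-5p had 53.1, 45.5 and 50.9 CPM in the 3rd instar, 57.2, 26.6 and 49.2 in the 5th instar and 67.5, 49.1 and 32.6 in adults. Entry m0014-5p had 39.1, 22.0 and 41.7 CPM, then 26.2, 46.5 and 38.3, then 62.2, 26.4 and 48.4 in the same order of stages. Neither separated any pair of stages.

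The 3 stages were compared pairwise and in one test of any difference. Of the 73 predicted entries, 27 (37.0%) passed the filter on low counts and were tested, as were 151 of 291 known entries (51.9%). With m0007-5p this makes 179 tested entries. The 46 untested predicted entries had 8 to 63 counts over all 9 libraries. No predicted entry passed in any comparison: 0 of 27 were called, where a call needed a Benjamini-Hochberg adjusted p under 0.05 in the quasi-likelihood test of edgeR and more than a 1-unit log2 fold change in either direction. Over all tested entries the same rule called 1.68% for the 5th against the 3rd instar, 1.12% for the adult against the 5th instar and 3.91% for the adult against the 3rd instar. A count of 0 among 27 is near these shares. In the test of any difference between the 3 stages, at an adjusted p under 0.05, 0 of 27 passed, against 4.47% of all tested entries. DESeq2 called 0, 0, 1 and 0 predicted entries in the same order, against 5.59%, 1.12%, 8.94% and 12.8% of all tested entries.

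At an unadjusted p under 0.05 stood 2 of 27 predicted entries for the 5th against the 3rd instar, where 17.3% of all tested entries did. For the adult against the 5th instar it was 2, against 10.1%, and for the adult against the 3rd instar 3, against 35.8%. Over all stages it was 1, m0009-5p (edgeR adjusted p = 0.173), against 24.6%. The entries of the pairwise counts are described with each comparison. The libraries of the compared stages lay apart for 3, 1 and 4 predicted entries in the 3 comparisons, where 29.1%, 14.0% and 31.3% of all tested entries did. The 3 were m0001-5p, m0012-3p and m0019-5p, all lower in the 5th instar. The 1 was m0009-5p, higher in adults than in the 5th instar. The 4 were m0008-3p, m0012-3p and m0022-5p, whose adult libraries lay below all 3rd instar ones, and m0010-3p, chosen after its values were seen. It averaged 19.8 ± 3.58 CPM in adults and 13.1 ± 1.28 CPM in the 3rd instar (SD, n = 3 each), with a log2 fold change of 0.60 ± 0.34 (edgeR adjusted p = 0.236). The estimates were less precise than those of known entries, with a median standard error (SE) of the log2 fold change of 0.56, 0.60 and 0.56 in predicted and 0.27, 0.28 and 0.28 in known entries. Median log2 fold changes were -0.17, 0.16 and -0.01 in predicted entries, and 0.0036, 0.08 and 0.05 over all tested entries. An absolute log2 fold change above 1 was reached by 7, 4 and 8 of the 27 (25.9%, 14.8% and 29.6%), against 15.6%, 7.26% and 18.99% of all tested entries. Entries m0024-5p and m0025-5p, which share their sequence, both count in the 7 and in the 8. These entries, m0016-5p (in the 7) and m0018-3p (in both) passed the filter through 5th instar and adult libraries alone. The filter thus favoured upward changes from the 3rd instar in them, so these shares are not a result about predicted entries. How many other tested entries passed in this way was not counted. Entry m0018-3p was picked after its values were seen. The 3 comparisons share libraries, so their values are not independent of each other. Stage means were ordered upwards from the 3rd instar through the 5th to the adult in 7 predicted (25.9%) and 46 known entries (30.5%), and downwards in 7 predicted (25.9%) and 32 known entries (21.2%). These orders take no account of the spread between libraries, and m0024-5p and m0025-5p both count as upward.

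**Figure D5:**
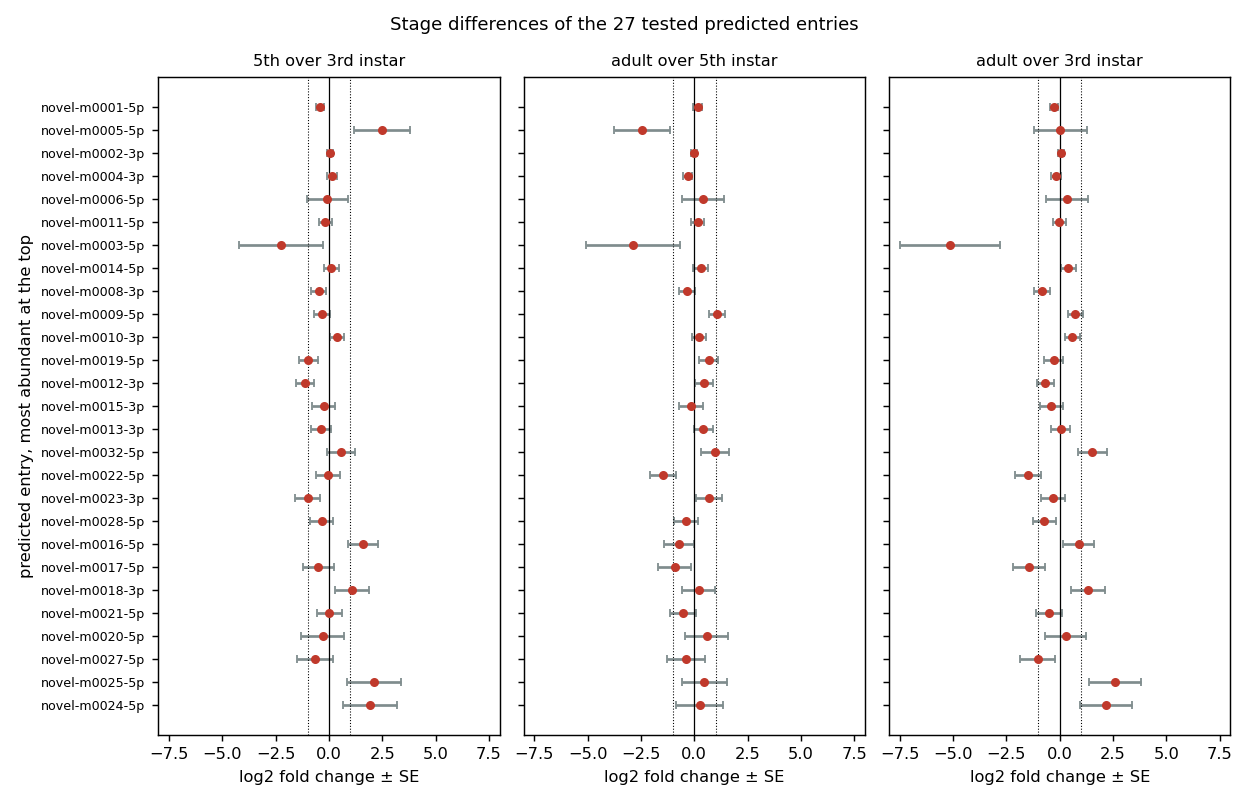
Log2 fold change ± SE of the 27 tested predicted entries in the 3 comparisons, each of the later stage over the earlier one, with dotted lines at -1 and 1. Entries are ordered by level with the most abundant at the top. The widest intervals are those of m0003-5p, and none of the 27 was called.

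For the 5th against the 3rd instar, the smallest p belonged to m0012-3p (cAACGGTTgcggagttccttaa). It had 9.69, 5.70 and 3.38 CPM in the 5th instar libraries, against 10.7, 13.1 and 17.0 in the 3rd instar libraries. All 5th instar libraries were lower, and the log2 fold change was -1.13 ± 0.42 (SE, edgeR adjusted p = 0.195). Entry m0019-5p had 7.75, 5.22 and 14.3 CPM in the 5th instar, against 16.7, 18.7 and 18.1 in the 3rd instar. Its libraries did not overlap either, with a log2 fold change of -0.96 ± 0.45 (edgeR adjusted p = 0.269). Entry m0016-5p overlapped, averaging 6.56 ± 4.71 CPM in 5th instar and 2.04 ± 1.46 CPM in 3rd instar libraries (SD, n = 3 each), with a log2 fold change of 1.60 ± 0.72 (edgeR adjusted p = 0.269), and of 0.93 ± 0.81 without 5th instar library 2. It passed the filter on low counts through 5th instar and adult libraries alone. The filter thus favoured a higher level of m0016-5p after the 3rd instar.

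The most abundant entry, m0001-5p, was lower in every 5th instar library on the scale of normalised CPM, with a log2 fold change of -0.42 ± 0.20 (edgeR adjusted p = 0.269). As a share of counts the same libraries overlapped. The difference for m0005-5p, a log2 fold change of 2.48 ± 1.30 (edgeR adjusted p = 0.353), came to 0.0039 ± 0.79 without 5th instar library 3.

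For the adult against the 5th instar, m0009-5p had the smallest p. Its 3 adult libraries, at 21.2, 38.9 and 29.1 CPM, all exceeded the 5th instar libraries, at 12.1, 17.6 and 13.2 CPM. The log2 fold change was 1.06 ± 0.37 (edgeR adjusted p = 0.296). In the 3rd instar the same entry had 9.36, 24.2 and 20.1 CPM, which overlapped with both other stages. Entry m0022-5p (tACACACGatccttgatgaaac) had 4.63, 2.18 and 1.95 CPM in adults, against 7.27, 12.8 and 2.63 in the 5th instar, with a log2 fold change of -1.45 ± 0.61 (edgeR adjusted p = 0.400), and of -0.85 ± 0.64 without 5th instar library 2, the highest. Next in order of p, both above 0.05 before adjustment, were m0005-5p and m0019-5p. The log2 fold change of m0005-5p was -2.46 ± 1.30 (edgeR adjusted p = 0.472) and came to 0.03 ± 0.79 without 5th instar library 3. That of m0019-5p was 0.68 ± 0.45 (edgeR adjusted p = 0.549).

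For the adult against the 3rd instar, m0022-5p was again lowest in p. Its adult libraries lay below the 3rd instar libraries, which had 9.36, 5.97 and 7.93 CPM, and the log2 fold change was -1.50 ± 0.60 (edgeR adjusted p = 0.105). Entry m0032-5p had 23.2, 6.22 and 3.26 CPM in adults, against 3.34, 2.24 and 4.85 in the 3rd instar. The log2 fold change was 1.53 ± 0.66 (edgeR adjusted p = 0.125), and 0.41 ± 0.51 without adult library 1, the highest. Entry m0025-5p, which shares its sequence with m0024-5p, had 3.97, 0 and 5.43 CPM in adults, against 0.668, 0.373 and 0.441 in the 3rd instar (log2 fold change 2.57 ± 1.22, edgeR adjusted p = 0.154). It was 1.68 ± 1.68 without adult library 3 and 3.20 ± 0.91 without adult library 2, the one at 0. The 3rd instar values come from 1 or 2 counts. Both m0025-5p and m0024-5p passed the filter on low counts through 5th instar library 3 and adult libraries 1 and 3 alone. The filter thus favoured higher levels after the 3rd instar in these entries.

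Entry m0008-3p, the longer form of miR-375-y, had 30.4, 39.8 and 14.6 CPM in adults, against 50.1, 49.6 and 50.5 in the 3rd instar. All adult libraries were lower, with a log2 fold change of -0.83 ± 0.36 (edgeR adjusted p = 0.128). The 5th instar libraries, at 23.3, 32.3 and 51.5 CPM, overlapped with both. The shorter miR-375-y had 56.9, 144.5 and 48.2 CPM in adults, against 60.5, 119.7 and 81.3 in the 3rd instar, which overlapped (log2 fold change -0.06 ± 0.46, edgeR adjusted p = 0.939). The longer form made up 37.6% ± 8.03 of the counts of both in 3rd instar libraries, 25.7% ± 7.38 in 5th instar libraries and 26.5% ± 7.24 in adult libraries (SD, n = 3 each). The share of the longer form was not tested between stages. It takes each read as counted in 1 form only, which was not tested either.

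Entry m0003-5p had the largest fold change of the 27, with 4.63, 2.18 and 3.04 CPM in adults against 135, 199 and 0 in the 3rd instar. The log2 fold change was -5.13 ± 2.34, and edgeR gave an adjusted p of 0.175. With 1 library left out, the log2 fold change was between -5.68 ± 1.64, without 3rd instar library 3, the one at 0, and -4.46 ± 2.51, without 3rd instar library 2, the highest. DESeq2 gave -5.14 ± 1.95 and an adjusted p of 0.0499, the single call of a predicted entry by any setting tried, while the adjusted p over all settings ranged from 0.0499 to 0.386. The 3rd instar libraries lie on both sides of the adult ones, so the stages overlap.

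The remaining entries that share sequence or a seed with known ones were low. Entry m0013-3p, with the seed of miR-1-x, had 8.07 ± 3.34, 6.22 ± 1.22 and 8.21 ± 2.80 CPM in 3rd instar, 5th instar and adult libraries (SD, n = 3 each). Entry m0033-5p, not tested, had 0, 1 and 4 counts in the 3rd instar, 0, 1 and 1 in the 5th instar and 5, 12 and 16 in adults. The nested miR-1692-z, also not tested, had 2, 4 and 2 counts, then 12, 3 and 27, then 0, 4 and 8. Entry m0057-5p had at most 1 count in every library except adult 2, with 9.

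No predicted entry had at least 3 counts in each library of one stage and 0 in all libraries of another. At 0 in a whole stage were 4 entries, namely m0045-3p, m0067-3p, m0068-3p and m0069-3p, all in the 5th instar, where 14 of the 291 known entries were at 0 too. In the 3rd instar 0 predicted and 32 known entries were at 0 in all libraries, and in adults 1 predicted and 13 known entries. Of the 4, m0068-3p had 0 counts in all adult and all 5th instar libraries, against 6, 1 and 8 counts in the 3rd instar libraries. With the libraries of a stage pooled, 3 counts over the group served as the floor. The pooled 1.31 CPM of m0068-3p in the 3rd instar was 3.95-fold the floor in adults and 2.70-fold that in the 5th instar. The others lay nearer the 5th instar floor of 0.483 CPM. In the 3rd instar and adults, m0045-3p stood at 1.26- and 0.685-fold that floor, m0067-3p at 0.721- and 2.05-fold and m0069-3p at 1.08- and 1.14-fold. Near or below the floor, 0 counts do not show absence. None of these ratios is a bound, since they leave out the counting error and the library spread of the stage with counts. For m0068-3p, 3rd instar library 2 had 1 count. These 4 were picked after their values were seen, were below the filter and carry no test.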

How the data were processed

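Per the file headers, the deposited table holds the sequence of every miRNA entry with its raw count and its TPM in 9 libraries. Small RNA was selected by length on a gel, ligated, amplified and read on an Illumina HiSeq, per the labels' protocols. The aligner, counter, prediction tool and reference were not given in the sources used here. The deposited counts were not normalised by the authors. The TPM values deposited by the authors are counts per library total with no division by length, and 0.01 stands for 0, as tested on the table. The listed counts make up 97.2% to 98.6% of that total.

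Members and lists were chosen with earlier results of these data known. Shares use the sum of listed counts. All 365 entries were filtered by stage with edgeR's filterByExpr, scaled by TMM (factors 0.854 to 1.17) and fitted over the 9 libraries with edgeR 4.0.16 (robust quasi-likelihood, stage means) in R 4.3.3. P-values were adjusted over all 179 tested entries. SEs came from the log2 fold change and the root of its F statistic. The procedure was also run on counts simulated from levels and spreads fitted to these data, and no result here rests on that run. Intervals and floors cover counting error only. Named are the 10 most abundant predicted entries, any called, the 4 with the smallest p in each comparison, those with a count pattern limited to one stage, both arms of a hairpin, and those sharing sequence or seed with a known entry. Entries named after their values were seen are stated as such. No genome was used.

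Alternatives were DESeq2 1.42.0, RLE factors, totals alone, factors from known entries, the table without the most abundant entry, a stricter filter (10 CPM in 3 libraries) or none, a fit of only the 2 stages compared, a replicate block, an adjusted p alone, shared sequences counted once (10 entries fewer), and leaving out each library. Leaving out entries under 20 nt was chosen after seeing the data.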

Additional observations from a re-analysis of the deposited data

How the results depend on the processing

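Calls over all tested entries moved with the processing, whereas the count of predicted entries called remained 0 in each comparison and over all stages under every alternative run, except that DESeq2 called 1 for the adult against the 3rd instar, m0003-5p. For the 5th against the 3rd instar (3 calls), DESeq2 gave 10 and library totals without factors 1. For the adult against the 5th instar (2), totals without factors gave 1, a fit of only those stages 0, and leaving out entries under 20 nt, chosen after seeing the data, 1. For the adult against the 3rd instar (7), DESeq2 gave 16, totals without factors 19 and an adjusted p alone 14. Over all stages (8), DESeq2 gave 23, factors from known entries 14 and leaving out entries under 20 nt 13. Leaving out 1 library gave 1 to 3, 0 to 2, 3 to 9 and 4 to 9 calls in that order. The fewest calls came with 3rd instar 3, or 5th instar 1 or 3, left out in the first, without 5th instar 1, 5th instar 2 or adult 3 in the second (1 call without adult 1), without 3rd instar 1 or 3 in the third, and without 3rd instar 1, 3rd instar 3 or adult 3 over all stages (5 calls without 5th instar 1). Library totals alone moved the median log2 fold change of all tested entries to 0.30 for the 5th against the 3rd instar, where TMM gave 0.0036, and to 0.23 for the adult against the 3rd instar, where TMM gave 0.05. Factors from known entries moved it to -0.11 for the 5th against the 3rd instar.

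The log2 fold change of m0001-5p for the adult against the 5th instar was -0.058 to 0.24 when 1 library was left out and changed sign without adult 2. That of m0005-5p was -3.03 to 0.030 and changed sign without 5th instar 3. The cause was not tested. Entries found in all 9 libraries numbered 29 at 1 count, 11 at 10 counts and 15 at the CPM that 3 counts make in the shallowest library. The p of the share of m0001-5p was 0.193 to 0.704 without 1 library. After removal of stage means, correlations between libraries of different stages were -0.227 to 0.420 for same-numbered ones and -0.434 to 0.283 for the rest. With 3 libraries per stage, these values cannot decide whether replicate numbers pair the libraries. A replicate block gave 2, 2, 7 and 11 calls, none of a predicted entry, and took the log2 fold change of m0003-5p for the adult against the 3rd instar to -3.45.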
